A study of Mus musculus with 46 samples.

Results

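Liver tumours driven by a Myc transgene were compared with control liver, both from mice of the FVB strain. Control liver, labelled as normal liver without a treatment, gave 11 libraries from 11 animal IDs. Myc tumours of the genotype tet-Myc/LAPtTA, with the transgene on, gave 16 libraries from 7 animal IDs. LAPtTA is a tetracycline-controlled transactivator specific for liver, and it had switched tet-Myc on while the animals were still in utero. The sources used here do not say whether the control livers carried either transgene, nor how old the animals were. The comparison takes 27 of the 46 libraries of the series and 18 of its 31 animal IDs, chosen by their titles alone. An ID with letters A to D was read as 1 animal with several tumours, which is an assumption, and the log2 values of such tumours were averaged first. All ranges below are over these 11 control IDs and 7 Myc tumour IDs unless libraries are named. In ranges joined by "and", control liver comes first, and in ranges joined by "against", the tumours.

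Myc is a transcription factor that binds DNA as a dimer with Max, most strongly at the sequence CACGTG, called the E-box. It is known for driving genes of ribosome production, nucleotide synthesis, amino acid uptake and cell division. The hepatocyte, the cell in which LAPtTA is active, otherwise divides rarely and devotes its transcripts to plasma proteins, detoxification, bile acids and the handling of sugar, fat and nitrogen. Textbook markers of hepatocytes were present in both groups: Alb, the gene of serum albumin, ran from 85.3 to 273 eRPKM in control liver (median 243) and from 68.8 to 144 in the tumours (median 104). The eRPKM is the number of exonic reads per kilobase of a gene, scaled to the reads of its library as in RPKM.

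The reads recovered came to between 5.62 and 8.94 M for a control library (median 7.30 M) and between 7.26 and 12.6 M for a tumour (median 9.62 M). No library exceeded 2182 reads per kb for any gene of ordinary length, and 1679 genes averaged above 400 reads per kb. Such a ceiling may distort differences of abundant genes in either direction. Gapdh was under 30 eRPKM in 6 of the 27 libraries, 1 control and 5 tumours, at no more than 25.4 against at least 35.2 in the others, and the reason was not tested. The 5 control IDs with the highest numbers lie above all tumour IDs, so results were also computed without them. Xist and the Y-linked genes placed both sexes in both groups. The libraries hold whole tissue, so fewer cells of a type and less RNA per cell cannot be told apart. They do not mark strand, so overlapping antisense genes cannot be separated. Separate animals are given by the IDs alone, and if these are not animals the p-values measure only the spread between samples.

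Of 14548 genes tested, 11631 differed between Myc tumours and control liver, 79.9% of all (limma on log2(eRPKM + 0.5), Benjamini-Hochberg adjusted p below 0.05). Higher in the tumours were 7269 genes (50%) and lower 4362 (30%). A difference of at least 2-fold was reached by 5404 genes (37.1%), 3479 higher (23.9%) and 1925 lower (13.2%). At least 4-fold higher were 1268 genes (8.72%) and at least 4-fold lower 786 (5.40%). The ID values of the groups did not overlap for 7811 genes (53.7%). The median gene stood 0.27 higher on the log2 scale (quartiles -0.42 and 0.96). After median-ratio scaling that median was 0.04, and 51.7% of 11555 calls were higher against 62.5% as deposited. All counts of gene lists below are to be read against these shares: a list with 50% of its genes higher and 30% lower would be no different from the table as a whole.

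**Figure D1:**
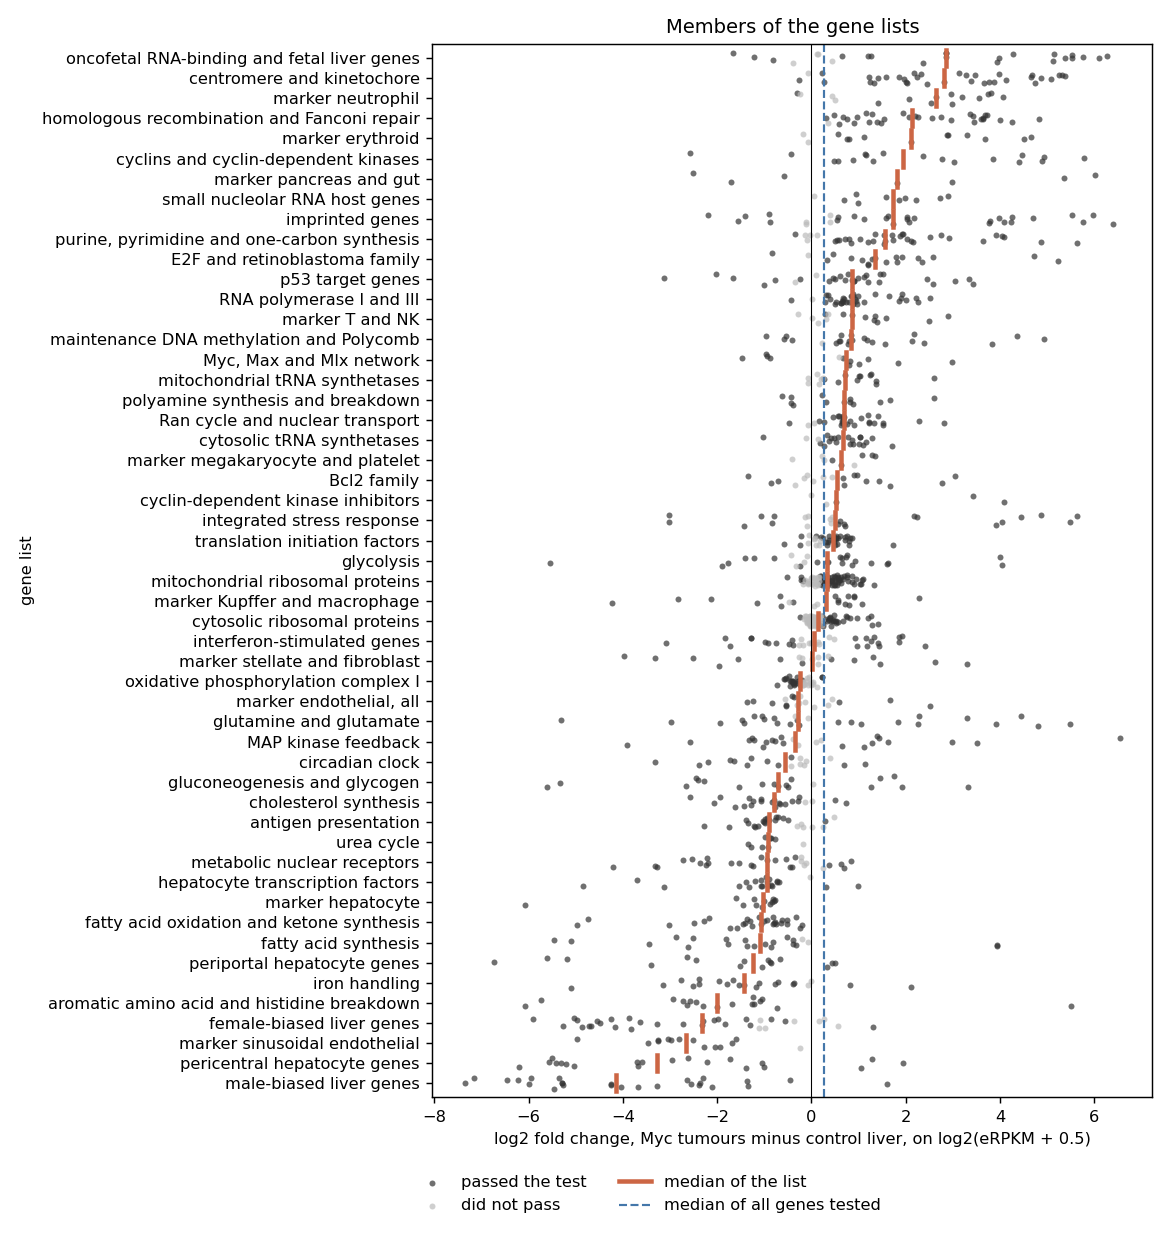
Log2 fold change (x axis, Myc tumours minus control liver, on log2(eRPKM + 0.5)) of every tested member of 52 gene lists (y axis), black where the gene passed the test and grey where it did not, with the list median in orange and the median of all genes, 0.27, as a dashed line. Lists of division and fetal genes lie at the top, and sex-biased, pericentral and sinusoidal lists at the bottom, with list medians from 2.85 to -4.15.

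The comparison held genes that were close to absent in 1 group and abundant in the other. In all, 84 genes lay under 0.5 eRPKM in every control ID and at 5 or more in every tumour ID, and 31 genes showed the reverse. The tumour-only class was led by Kcnk16, a potassium channel gene otherwise known from the pancreas, which ran from 0 to 0.311 eRPKM in control liver and from 29.2 to 49.9 in the tumours (median 44.1). Shbg, the gene of the sex hormone-binding globulin of plasma, ran from 0 to 0.389 and from 33.9 to 43.0 (median 41.0). Car12, a membrane-bound carbonic anhydrase gene, reached no more than 0.384 in control liver and 36.1 to 43.9 in the tumours. Hif3a, which encodes a subunit of the hypoxia-inducible factors, Mgst2, a microsomal glutathione transferase gene, and Dctd, which encodes dCMP deaminase of the thymidylate pathway, had tumour medians of 31.4, 28.5 and 29.6 eRPKM against control medians of 0.106, 0.210 and 0.209. The tumour IDs of these genes lay close together while all control IDs were near 0.

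The genes with the largest fold changes outside that class behaved alike. Dusp9, which encodes a phosphatase that inactivates MAP kinases, ran from 0 to 2.08 eRPKM in control liver (median 0.50) and from 84.4 to 106 in Myc tumours (median 91.2) (log2 fold change 6.54 ± 0.20, SE, adjusted p = 3.9e-23). Ggt1, the gamma-glutamyltransferase gene known from fetal liver, ran from 0 to 1.03 and from 64.0 to 77.7 (6.53 ± 0.15, adjusted p = 2.1e-26). Peg10, an imprinted gene derived from a retrotransposon, ran from 0.298 to 3.18 and from 107 to 131 (6.40 ± 0.46, adjusted p = 7.6e-14). A2m, the gene of the protease inhibitor alpha-2-macroglobulin, ran from 0.0353 to 0.694 and from 51.9 to 77.8. Ccnb1ip1, a ubiquitin ligase gene of meiosis, ran from 0 to 0.997 and from 39.4 to 58.2. In each of these 5 genes the lowest tumour ID was more than 10-fold above the highest control ID.

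Losses were as deep. Ces3b, a hepatocyte carboxylesterase gene, ran from 92.7 to 185 eRPKM in control liver (median 138) and from 0 to 0.425 in Myc tumours (median 0.0412). Slc22a7, an organic anion transporter gene, ran from 53.3 to 91.4 and from 0.0734 to 0.498, and Ido2, which encodes a tryptophan-degrading enzyme, from 42.5 to 63.0 and from 0.0256 to 0.298. Dio1, the deiodinase gene of thyroid hormone activation, fell from 93.5 to 146 eRPKM to 0.0536 to 0.668 (-7.22 ± 0.41, adjusted p = 1.9e-16). Slco1a1, a transporter gene of bile acids and steroids, ran from 89.2 to 167 and from 0.0118 to 0.975 (-7.35 ± 0.52, adjusted p = 4.8e-14). The largest gains of level, beside Peg10, were Hist1h1b, a linker histone gene at a mean of 149 ± 17.7 eRPKM in the tumours (SD, n = 7) against 8.22 ± 3.44 (SD, n = 11), and the imprinted pair H19 and Igf2, taken up below with the fetal genes. Isyna1, which encodes inositol-phosphate synthase, stood at 123 ± 10.6 against 9.82 ± 2.46. The 5 largest losses of level held Apoa5, an apolipoprotein gene of triglyceride clearance, at 10.2 ± 5.50 against 202 ± 25.8, and Cyp2e1, the ethanol-inducible cytochrome gene, at 7.30 ± 4.68 against 199 ± 38.0. Members of the Ces, Mup, Cyp and Ugt families share reads with near-identical copies, and their values are uncertain to that extent.

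**Figure D2:**
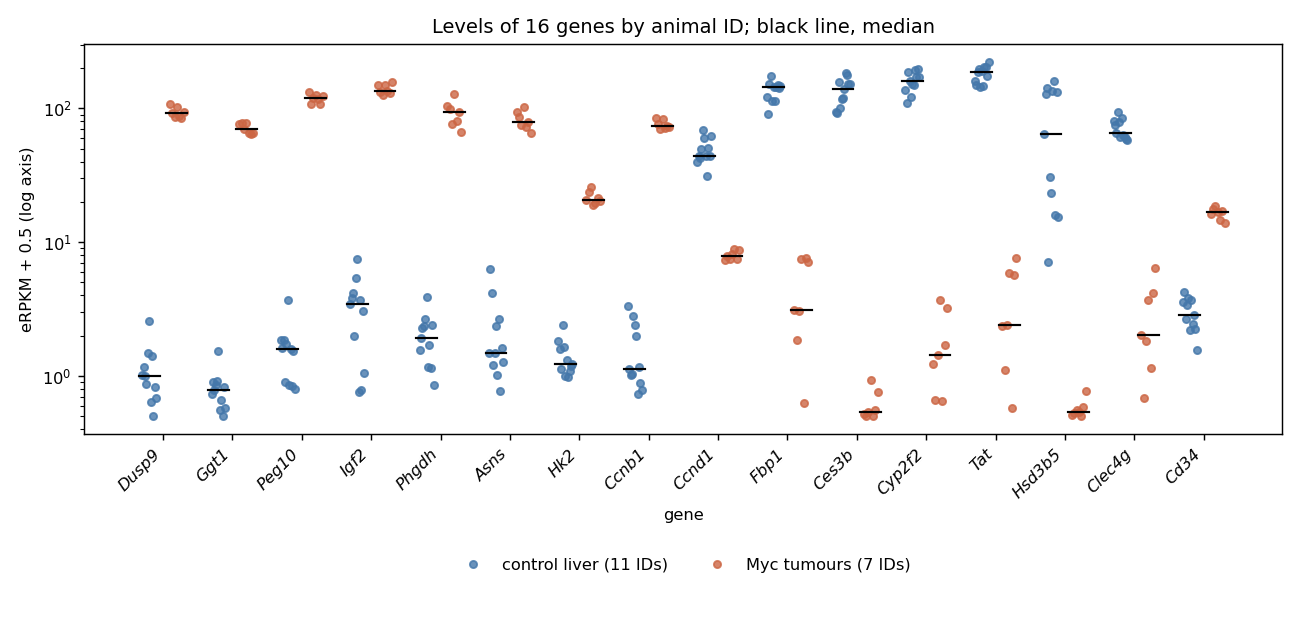
Level of 16 genes (x axis) as eRPKM + 0.5 on a log axis (y axis) in each of the 11 control IDs (blue) and 7 Myc tumour IDs (orange), with the median as a black line. The groups do not overlap for any of the 16 genes, and Hsd3b5 is the gene with the widest spread in control liver, from 6.63 to 160 eRPKM.

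The table's Myc gene did not pass the test. It ran from 1.46 to 18.2 eRPKM in control liver (median 5.56) and from 6.27 to 10.8 in the tumours (median 7.06), at 0.59 ± 0.34 on the log2 scale (adjusted p = 0.11), which passed without control ID128993, the control at 18.2 (0.77, adjusted p = 0.026). The sources used here do not name the species of the transgene, so this value does not check the labels. Around Myc, 7 of 12 tested genes of the Max and Mlx network rose and 4 fell. Max, the dimer partner, ran from 14.2 to 28.1 eRPKM in control liver (median 17.1) and from 39.2 to 46.2 in the tumours (median 42.5; 1.2 ± 0.09). Mxd3, the member of the Mxd family of Max-binding repressors tied to proliferating cells, ran from 0.539 to 1.75 and from 9.20 to 12.6 (2.99 ± 0.16). Its relative Mxd4 fell, from 52.5 to 68.9 eRPKM to 26.0 to 36.4 (-0.94 ± 0.09). The glucose-sensing branch split in the same manner: Mlxip, which encodes MondoA, rose by 1.84 ± 0.10, while Mlxipl, which encodes the hepatic ChREBP, stood at -0.97 ± 0.09 and their shared partner Mlx at -0.87 ± 0.07. Mycn, a low gene in control liver at 1.01 to 4.83 eRPKM, was at 0.256 to 0.458 in the tumours. Zbtb17, the gene of the Myc partner Miz1, ran from 7.26 to 13.4 and from 11.3 to 15 (0.35 ± 0.11, adjusted p = 0.0052). It did not pass after median-ratio scaling (0.11) or without the 5 highest-numbered control IDs (0.17), and quantile normalisation (-0.04) or a depth term (-0.07) turned its sign.

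Several genes that rose hold the E-box within 250 bases before or 50 after their RefSeq start, and 4 stretches of 60 bases are printed here. One is from Max, and the others are from genes among the largest rises of their own growth lists. The stretches were picked because they hold this textbook motif, so they do not show how common it is among genes that rose. They are given on the strand of the gene, 5′ to 3′, from the RefSeq promoters of build GRCm38.p6, with CACGTG, its own reverse complement, in capitals. Max is on the minus strand at chr12:76962234-76962293, with the motif 3 bases before the start and running into the first exon. Cd3eap is on the minus strand at chr7:19359669-19359728 with the motif 218 bases before the start, Sms on the minus strand at chrX:157492453-157492512 with the motif 196 bases before it, and Snhg9 on the minus strand at chr17:24720106-24720165 with the motif 170 bases before it.
Max: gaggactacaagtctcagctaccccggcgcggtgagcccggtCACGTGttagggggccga
Cd3eap: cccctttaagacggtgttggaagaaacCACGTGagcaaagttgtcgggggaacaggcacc
Sms: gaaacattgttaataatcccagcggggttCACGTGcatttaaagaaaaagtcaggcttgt
Snhg9: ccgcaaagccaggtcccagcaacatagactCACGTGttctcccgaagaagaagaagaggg
Of 27025 genes with a promoter in the RefSeq table, 1957 (7.2%) hold CACGTG in this window. Only 77.2% of the genes tested could be matched to that table, under the 80% needed, so no share is given for genes that rose or fell. A match describes letters and shows no binding.

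Genes that supply ribosomes with RNA rose broadly. Of 35 subunits and factors of RNA polymerase I and III, which transcribe ribosomal, transfer and 5S RNA, 33 rose and 1 fell (median 0.86). Cd3eap, a polymerase I subunit gene and the second of the sequences above, ran from 4.04 to 9.41 eRPKM in control liver (median 6.16) and from 33.7 to 42.5 in the tumours (median 37.1; 2.51 ± 0.10). Taf1d and Taf1c, members of the promoter selectivity factor of polymerase I, rose by 2.22 ± 0.09 and 2.26 ± 0.11. Of 10 tested small nucleolar RNA host genes 9 rose and 0 fell (median 1.72), led by Snhg7 at 52.5 to 63.1 eRPKM against 4.22 to 10.6 and Snhg1 at 48.6 to 60.8 against 3.27 to 11.3. Ncl, the nucleolin gene, lay at 77.3 to 86.1 against 27.8 to 35.3.

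Translation followed, with smaller changes. Of 22 cytosolic tRNA synthetase genes 19 rose and 1 fell (median 0.66). Vars, the valyl-tRNA synthetase gene, ran from 17.5 to 28 eRPKM in control liver (median 21.8) and from 66.8 to 76.2 in the tumours (median 72.5; 1.70 ± 0.08). The exception was Aars, the alanyl-tRNA synthetase gene, at 24.7 to 33.0 against 47.5 to 90.5, a fall of 1.03 ± 0.10 (adjusted p = 9.6e-11). Of 17 mitochondrial tRNA synthetase genes 11 rose and 0 fell, led by Mars2 at 2.59 ± 0.11. Initiation factors gave 28 higher and 3 lower of 38 (median 0.46), but 18 and 7 after median-ratio scaling, with Eif2b3, a subunit of the exchange factor of eIF2, at 1.72 ± 0.10. Ribosomal protein genes depended on the scaling: 33 of 82 cytosolic genes rose and 1 fell as deposited, 16 rose and 21 fell after median-ratio scaling, 78 rose after quantile normalisation, 74 rose with a depth term and 58 after the correction for the read ceiling. The mitochondrial set gave 51 higher and 5 lower of 76, and 30 and 16 after median-ratio scaling. Rps15a, at 19.2 to 24.8 eRPKM against 6.0 to 8.92, was the largest rise among the cytosolic ribosomal genes.

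Nuclear transport and polyamines moved with them. Of 29 genes of the Ran cycle, which moves proteins and RNA through the nuclear pore, 26 rose and 1 fell (median 0.68). Rcc1, the exchange factor of Ran, ran from 4.41 to 8.60 eRPKM in control liver (median 6.09) and from 41.5 to 50.8 in the tumours (median 48.1), and Xpo4, an exportin gene, rose by 2.28 ± 0.09. All 13 polyamine genes passed the test, 9 higher and 4 lower. The higher ones held enzymes of synthesis, some of breakdown and Dhps, which is of neither kind. Sms, the spermine synthase gene, ran from 3.47 to 5.50 and from 26.9 to 32.5 eRPKM (2.59 ± 0.12). Srm, the spermidine synthase gene, rose by 1.67 ± 0.13, and Odc1, the first enzyme, by 0.69 ± 0.07. The lower ones were Sat2 at -0.63 ± 0.14, Oaz1 and Oaz2, antizyme genes that restrain ornithine decarboxylase, the latter at -0.43 ± 0.07, and Azin1, which encodes an inhibitor of antizyme.

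One-carbon and nucleotide synthesis held some of the largest metabolic rises. Of 35 genes 30 rose, 24 of them at least 2-fold, and 1 fell (median 1.55). Phgdh, which opens serine synthesis from glucose, ran from 0.352 to 3.36 eRPKM in control liver (median 1.41) and from 65.7 to 128 in the tumours (median 93.4; 5.63 ± 0.20, adjusted p = 1.9e-21). Psat1, the second enzyme of that path, ran from 1.02 to 4.94 and from 84.9 to 108 (4.86 ± 0.18). Mthfd2 and Mthfd1l, of the mitochondrial folate cycle, rose by 4.04 ± 0.22 and 3.91 ± 0.18, and Rrm2, the regulated subunit of ribonucleotide reductase, by 4.09 ± 0.15. Shmt2, also of that cycle, stood at 0.11 and did not pass, but was called higher after quantile normalisation (0.57).

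Most genes of chromosome segregation and repair rose. Of 35 centromere and kinetochore genes 33 rose, 31 of them at least 2-fold, and 1 fell (median 2.81). Their levels in control liver differed widely: the fall was Cenpb, which binds a centromeric repeat, at 48.5 to 52.1 against 48.6 to 73.7 eRPKM (-0.26 ± 0.08, not called after quantile normalisation). Cenpe, a motor protein gene of the kinetochore, ran from 0.0227 to 1.03 eRPKM in control liver (median 0.396) and from 33.5 to 38.5 in the tumours (median 37.5; 5.37 ± 0.14). Of 32 genes of homologous recombination and Fanconi repair 31 rose and 0 fell (median 2.13). Exo1, an exonuclease gene of DNA end resection, ran from 0 to 1.54 and from 18.3 to 22.7, and Fancd2, the central Fanconi protein gene, from 0.135 to 0.680 and from 8.74 to 13. Of 19 E2F and retinoblastoma family genes 17 rose and 1 fell. Mybl2 and Foxm1, which drive the late cell cycle programme, rose by 5.23 ± 0.16 and 4.72 ± 0.14, and the single fall was Rbl2, the gene of the pocket protein p130 of resting cells, at 11.8 to 17.7 eRPKM against 21.1 to 29.5. Mki67 lay at 83.1 to 109 against 0.969 to 7.95.

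Most cyclin genes rose, and 2 of the D type fell. Of 18 tested cyclin, cyclin-dependent kinase and Cdc25 genes 16 rose and 2 fell. Ccnb1, the mitotic cyclin B1 gene, ran from 0.227 to 2.81 eRPKM in control liver (median 0.621) and from 70.0 to 84.8 in the tumours (median 73.2; 5.79 ± 0.23), and Ccne1, the cyclin E1 gene of S phase entry, rose by 3.86. Ccnd1, the cyclin D1 gene that links growth factors to the cycle, ran from 30.7 to 68.1 and from 6.86 to 8.35, a fall of 2.58 ± 0.20 (adjusted p = 2.9e-13), with no overlap between the groups. The other fall was Ccnd2 (-0.43 ± 0.13), whose groups overlapped. Of 5 tested inhibitors of cyclin-dependent kinases 3 rose and 0 fell: Cdkn1b, the p27 gene, by 0.52 ± 0.10, Cdkn1c, the imprinted p57 gene, from 1.65 to 9.16 and from 42.6 to 87.8 (4.09 ± 0.24), and Cdkn1a, the p21 gene, from 0.370 to 6.04 and from 16.2 to 44.3 (3.42 ± 0.32). Uhrf1 and Hells, which maintain DNA methylation behind the replication fork, rose by 4.94 ± 0.28 and 4.36 ± 0.23, in a list of 23 methylation and Polycomb genes of which 18 rose and 4 fell. Tet1, which encodes an enzyme that oxidises methylated cytosine, ran from 0.111 to 0.467 and from 8.96 to 14.1.

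Sugar metabolism exchanged its liver enzymes for those of other tissues. The liver has dedicated members of several enzyme families, and 13 such pairs were followed by the log2 ratio of both genes, each as eRPKM + 0.5, within each ID. The pairs were chosen after the values were seen, so separate ratios were to be expected, and the pairs get no test. Their count does not measure how common such an exchange is. In all 13 pairs the ratios of the groups did not overlap, and in 5 pairs every control ID held more of the liver member and every tumour ID more of the other. Hk2, the hexokinase gene of muscle and tumours, ran from 0.476 to 1.89 eRPKM in control liver (median 0.718) and from 18.5 to 25.5 in the tumours (median 20.1), with no overlap. Pklr, the liver pyruvate kinase gene, gave way to Pkm (log2 ratio of Pkm over Pklr -3.53 to -1.79 and 0.84 to 1.43), and Pck1, the cytosolic enzyme that commits carbon to glucose production, to its mitochondrial relative Pck2 (-6.48 to -5.08 and 1.05 to 5.18). Of 26 glycolysis genes 15 rose and 7 fell, close to the shares of all genes, or 10 and 10 after median-ratio scaling. Of 19 genes of gluconeogenesis and glycogen 5 rose and 13 fell. Fbp1, the fructose bisphosphatase gene, ran from 90.9 to 173 and from 0.124 to 7.09 eRPKM, and G6pc, the final step of glucose release, from 92.9 to 143 and from 9.72 to 32.4.

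Amino acid handling showed the same exchange. The importer gene Slc1a5 rose from 0.717 to 2.35 eRPKM to 45.2 to 53.5, and Slc1a2, the glutamate transporter gene of the same family, fell from 22.2 to 40.8 to 0.134 to 0.350. Asns, the asparagine synthetase gene, ran from 0.268 to 5.84 and from 64.8 to 102 (5.49 ± 0.27), and Aldh18a1, the first enzyme of proline synthesis from glutamate, rose by 4.45 ± 0.15. Of 26 glutamine and glutamate genes 11 rose and 13 fell. Breakdown of aromatic amino acids and histidine fell in 16 of 17 genes (median -2.01), with Tat, the tyrosine aminotransferase gene, at 0.0750 to 7.10 against 145 to 223 and Tdo2, which opens tryptophan breakdown, at 0.109 to 6.40 against 105 to 199. The single rise was Hpdl, a relative of the tyrosine breakdown gene Hpd, from 0.103 to 0.776 eRPKM to 31.3 to 43.4. Urea cycle genes fell in 8 of 9 (median -0.93), by no more than 1.34 (Otc, the ornithine transcarbamylase gene). Their median was -1.18 after median-ratio scaling, -0.54 after quantile normalisation and -0.58 with a depth term.

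**Figure D3:**
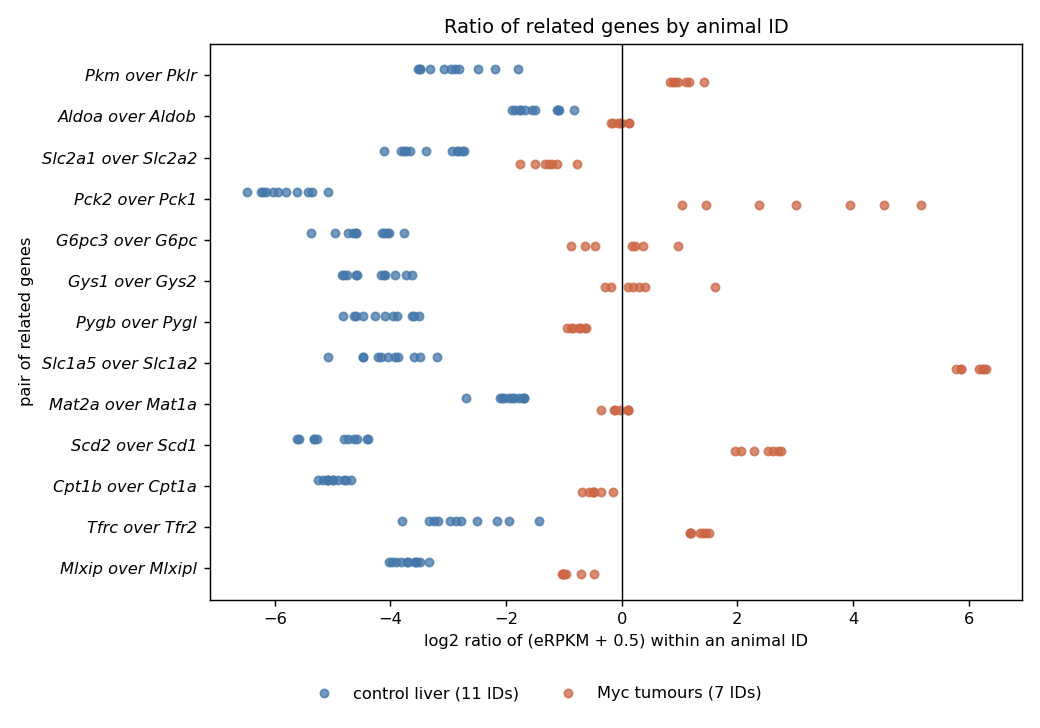
Log2 ratio of eRPKM + 0.5 (x axis) between the 2 genes of 13 related pairs (y axis) in each of the 11 control IDs (blue) and 7 Myc tumour IDs (orange). The pairs were chosen after the values were seen. The groups do not overlap in any pair, and Pck2 over Pck1 moves from -6.48 to -5.08 in control liver to 1.05 to 5.18 in the tumours.

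Lipid genes fell, with members of other tissues again as exceptions. All 29 genes of fatty acid oxidation and ketone synthesis fell (median -1.07), led by Cyp4a10, an omega-hydroxylase gene at 0.136 to 1.95 eRPKM against 4.02 to 74.4, and Ehhadh, the peroxisomal bifunctional enzyme gene, at 9.15 to 23.8 against 101 to 133. Outside that list Cpt1b, the muscle form of the carnitine palmitoyltransferase that admits fatty acids to mitochondria, ran from 1.66 to 2.90 and from 32.7 to 43.8 (3.71 ± 0.17), while the liver form Cpt1a fell by 0.81 ± 0.09. Of 22 fatty acid synthesis genes 18 fell and 2 rose. Scd1, the stearoyl-CoA desaturase gene of liver, ran from 150 to 243 eRPKM and from 11.8 to 28.5, and Scd2, known from fetal liver and brain, from 3.45 to 8.01 and from 82.7 to 112 (3.93 ± 0.11). Elovl7, an elongase gene, was the second rise, at 11.2 to 17.4 against 0.285 to 0.897. Thrsp, a regulator of fat synthesis, ran from 106 to 244 and from 2.85 to 10.3. Cholesterol synthesis fell in 19 of 23 genes (median -0.80), led by Tm7sf2, a sterol reductase gene, at -2.57 ± 0.17. Complex I of the respiratory chain gave 2 higher and 20 lower of 37 with small changes (median -0.24), 0 and 31 after median-ratio scaling, and 7 and 8 after quantile normalisation.

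Regulators of the hepatocyte fell unevenly. Of 22 transcription factors of hepatocytes 19 fell and 2 rose (median -0.95). Hnf4a, the central one, ran from 120 to 151 eRPKM in control liver (median 136) and from 74.7 to 88.3 in the tumours (median 78.7; -0.73 ± 0.07), a modest fall beside those of Onecut2 (0.202 to 6.69 against 22.4 to 68.9), Tbx3 (0.193 to 0.761 against 7.37 to 26.6) and Zbtb20, a repressor of Afp (2.89 to 6.66 against 20.3 to 47.8). Of 29 metabolic nuclear receptor genes 20 fell and 4 rose. Esr1, the estrogen receptor gene, ran from 18.0 to 40.2 and from 0.646 to 1.23 (-4.21 ± 0.27), and Rora, a receptor of the clock, from 22.4 to 30.6 and from 1.70 to 2.47 (-3.31 ± 0.14). Thra, the thyroid hormone receptor gene alpha, rose by 0.82 ± 0.13. Of 18 clock genes 10 fell and 2 rose, with Dbp, an output gene, at 4.73 to 7.26 against 15.7 to 48.3. The sources used here do not give the hour of tissue collection, so its part in the clock genes was not tested.

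Genes of both zones of the liver lobule fell. Of 20 pericentral genes, those of hepatocytes around the central vein, 17 fell and 3 rose (median -3.28), and of 16 periportal genes 13 fell and 3 rose (median -1.25). The difference between the lists was not tested. Pericentral Cyp1a2, a cytochrome gene of drug metabolism, ran from 123 to 172 eRPKM in control liver (median 144) and from 0.375 to 5.08 in the tumours (median 1.35). Notum and Axin2, both feedback targets of the Wnt signal that sets the pericentral zone, stood at 0 to 0.580 against 29.8 to 51.5 and at 0.0415 to 0.473 against 3.13 to 8.77. Glul, the glutamine synthetase gene and classical pericentral marker, fell by only 1.05. The 3 pericentral rises were Tnfrsf19, also a Wnt target, at 9.96 to 16.9 against 1.43 to 4.44, Znrf3 (1.29 ± 0.09) and Slc1a4, whose call was lost with a depth term (0.07) and without the 5 highest-numbered control IDs (0.67). The 3 periportal rises were lost after median-ratio scaling. Periportal Cyp2f2 ran from 109 to 196 and from 0.147 to 3.21, whereas the urea cycle gene Arg1, periportal too, fell by 1.05 ± 0.11.

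Iron genes fell in 17 of 21 (median -1.43). Hamp, which encodes the iron hormone hepcidin, ran from 131 to 214 eRPKM in control liver (median 174) and from 3.62 to 38.0 in the tumours (median 27.1; -3.14 ± 0.35). Tfrc, the transferrin receptor gene that imports iron into dividing and erythroid cells, ran from 9.31 to 40.4 and from 71.9 to 95.2 (2.12 ± 0.18), while its liver relative Tfr2 ran from 109 to 144 and from 28.6 to 34.6. Tfrc is itself a member of the erythroid marker list given below. Most of that list rose in the same tumours, and the part of erythroid cells in the Tfrc value was not tested.

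Most genes that differ between male and female liver fell in the tumours. The sex difference of mouse liver is set by the pattern of growth hormone release and is carried by Mup, Cyp and sulfotransferase genes. Of 26 tested male-biased genes 25 fell and 1 rose (median -4.15), and of 33 female-biased genes 25 fell and 1 rose (median -2.32). The summed level of the male-biased genes ran from 909 to 2683 eRPKM in control liver and from 107 to 152 in the tumours. For the female-biased genes the sums were 219 to 2343 and 134 to 160. In control liver the animals spread along both axes, high in 1 list and low in the other with ID125319 between them, and all 7 tumour IDs lay together at the low end of both. Hsd3b5, a male-biased steroid enzyme gene, ran from 6.63 to 160 eRPKM in control liver (median 63.4) and from 0 to 0.265 in the tumours (median 0.0359). A1bg, a female-biased plasma protein gene, ran from 1.38 to 253 and from 0 to 0.555, and Cyp2b9, a female-biased cytochrome gene, from 0.958 to 194 and from 0.0475 to 1.53. Because both sexes are mixed in the control group, the fold changes of these genes average over animals in which the gene was on and animals in which it was nearly off. Cyp4a12b, the single male-biased rise, ran from 0 to 13.6 and from 6.62 to 10.5, within the control range, and did not pass after quantile normalisation (adjusted p = 0.071).

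**Figure D4:**
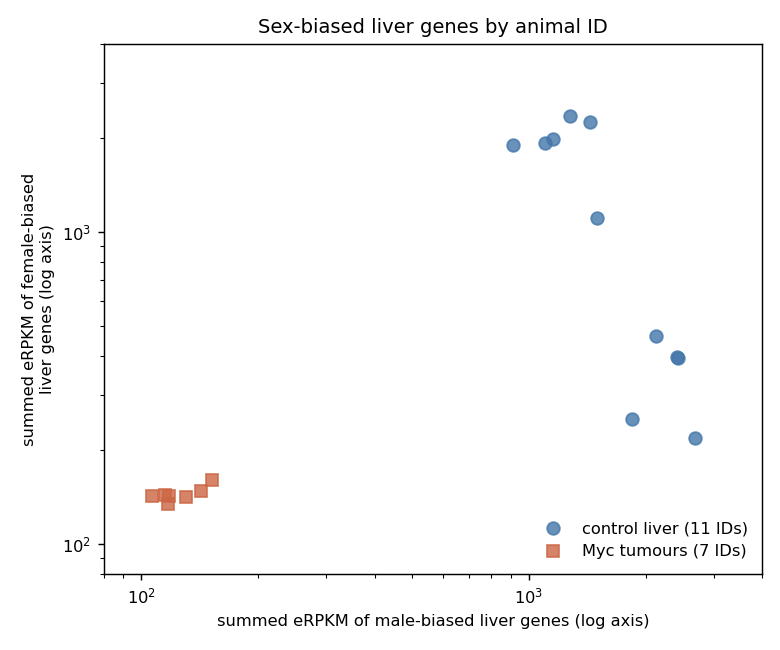
Summed eRPKM of 28 male-biased liver genes (x axis, log) and 34 female-biased liver genes (y axis, log) in each of the 11 control IDs (blue circles) and 7 Myc tumour IDs (orange squares). Control IDs lie at 909 to 2683 on the first axis and 219 to 2343 on the second, and all tumour IDs at 107 to 152 and 134 to 160.

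Imprinted and fetal genes were among the strongest rises. Of 31 tested imprinted genes, which are expressed from 1 parental copy and are mostly active before birth, 22 rose, 19 of them at least 2-fold, and 5 fell (median 1.72). Igf2, the fetal growth factor gene, ran from 0.263 to 7.04 eRPKM in control liver (median 2.95) and from 125 to 158 in the tumours (median 134; 5.77 ± 0.32), and its neighbour H19, a noncoding RNA, from 0.189 to 43.6 and from 126 to 184 (3.98 ± 0.60). From the Dlk1 cluster, Dlk1 itself ran from 0 to 0.142 and from 21.8 to 27, with the noncoding Rian at 30.04 to 36.2 against 0.588 to 1.26 and Meg3 at 7.67 to 17.6 against 0.0777 to 0.347. Both the paternally expressed Igf2 and Dlk1 and the maternally expressed H19 and Meg3 thus rose. Phlda2, a growth-restraining gene of placenta, ran from 0 to 1.02 and from 24.1 to 75.1. The lowest tumour values of Phlda2 and Cdkn1c came from 1 library, ID128992-B, at 8.80 and 20.4 eRPKM, against 41.7 to 96.1 and 54.2 to 106 in the other 15. Grb10, an adaptor gene that dampens insulin signalling, ran from 3.64 to 8.73 and from 78.7 to 99.1. Slc22a18, an imprinted transporter gene, was the largest fall, at 5.81 to 16.6 against 44.8 to 82.5, with ID128992-B again lowest (2.72, the other tumours 8.68 to 17.7). Reads do not tell the parental copies apart here.

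The oncofetal list, genes of fetal liver and of RNA-binding proteins that return in tumours, gave 18 higher and 3 lower of 25 (median 2.85). Bex1 and Bex2, neural adaptor genes, were its largest rises, at 83.6 to 106 against 0.205 to 3.79 eRPKM and 59.2 to 80.9 against 0 to 1.24. Trim71, a target of let-7 microRNAs, and Lin28b, which blocks their maturation, stood at 22.4 to 29.0 against 0.0241 to 0.237 eRPKM and at 14.7 to 20.2 against 0 to 0.0754. Lin28a, the close relative of Lin28b, stood at 0.43 and did not pass the test. Igf2bp1, an RNA-binding protein gene of the same programme, ran from 0 to 0.187 and from 4.47 to 40.1, and Igf2bp3 from 3.27 to 7.78 and from 35.9 to 41.2, whereas Igf2bp2, low in both groups, fell from 0.464 to 1.56 to 0.107 to 0.462. Gpc3, a glypican gene used as a liver tumour marker, ran from 0.327 to 2.91 and from 24.8 to 36.3, and Afp from 8.11 to 19.1 and from 59.5 to 137.

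Stress and signalling lists moved in both directions. Of 29 p53 target genes 21 rose and 6 fell (median 0.87). Beside Cdkn1a the largest rises were Gadd45b, a growth arrest gene at 17.9 to 33.9 eRPKM against 0.415 to 6.43, and Pmaip1, the gene of the death protein Noxa, at 5.83 to 14.2 against 0.201 to 0.778. Fas, the death receptor gene, ran from 21.3 to 34.9 and from 7.17 to 9.69, a fall of 1.66 ± 0.12. In the integrated stress response list 12 of 24 rose and 6 fell, and the 6 largest rises were biosynthetic genes named above (Phgdh, Asns, Psat1, Aldh18a1, Mthfd2) and the amino acid transporter gene Slc7a5. The factor genes Atf4 and Ddit3, and Trib3, did not pass, at -0.10 ± 0.07, -0.14 ± 0.18 and 0.40 ± 0.26. Both factor genes passed as lower after median-ratio scaling, and Atf4 as higher after quantile normalisation. Of 24 tested genes of MAP kinase feedback 9 rose and 11 fell, so the list had no single direction. Beside Dusp9 the largest rises were Dusp2, another phosphatase gene of MAP kinases, at 6.63 to 11.9 against 0.0775 to 0.593 eRPKM, and Spry3, of the Sprouty family, at 2.97 to 6.24 against 0 to 0.122. Phlda1 and Spry4, the largest falls, and the phosphatase gene Dusp6 stood at 1.65 to 2.79 against 18.0 to 67.8 eRPKM, 1.37 to 2.96 against 8.83 to 22.3 and 15.1 to 19.3 against 23.2 to 47.3.

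Antigen presentation fell in 18 of 25 tested genes and rose in 1 (median -0.90). Tap2, a subunit of the peptide transporter, ran from 22.7 to 49.8 eRPKM in control liver (median 25.97) and from 3.96 to 6.29 in the tumours (median 5.37; -2.27 ± 0.28). Nlrc5, the transactivator of class I genes, fell by 1.75 ± 0.25 and the class I gene H2-K1 by 1.21 ± 0.09. Interferon-stimulated genes split, 12 higher and 11 lower of 34. Higher ones held Ifi27l2a (11.8 to 20.6 against 1.21 to 4.21) and Rsad2, the viperin gene (10.8 to 34.4 against 2.32 to 7.28), and lower ones the interferon-gamma GTPase genes Iigp1 (9.15 to 15.1 against 61.4 to 119) and Igtp (13.8 to 23.8 against 44.2 to 72.9).

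Markers of the other cells of the tissue differed as well. Of 14 sinusoidal endothelial markers 13 fell and 0 rose (median -2.67), and their summed level was 263 to 429 eRPKM in control liver and 52.3 to 85.9 in the tumours. Clec4g, a lectin gene of these cells, ran from 57.4 to 93.0 and from 0.189 to 5.89. Markers of endothelium in general gave 3 higher and 7 lower of 18, or 2 and 13 after median-ratio scaling, with summed levels of 174 to 333 and 189 to 234. Among the 3 higher ones, Cd34, known from capillary endothelium and stem cells, ran from 1.07 to 3.75 and from 13.3 to 18.2 (2.51 ± 0.16). Emcn, also among them, rose by 1.67 ± 0.13. Both went against the direction of most called members. Of 19 stellate and fibroblast markers 6 rose and 7 fell. Acta2, the actin gene of myofibroblasts, and Col1a1, a fibrillar collagen gene, stood at 7.67 to 17.4 against 0.280 to 1.88 and at 17.4 to 38.1 against 1.93 to 12.4, while the markers of resting stellate cells Lrat, which stores vitamin A, and Reln stood at 0.591 to 4.09 against 13.2 to 36.1 and at 0.555 to 3.09 against 13.7 to 30.1.

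Most neutrophil, erythroid and T and NK cell markers rose, and macrophage markers were split. Of 20 Kupffer cell and macrophage markers 10 rose and 7 fell, close to the shares of all genes, or 7 and 7 after median-ratio scaling and after quantile normalisation. Cd68, a lysosomal gene of macrophages, ran from 8.21 to 18.0 and from 55.0 to 70.0 eRPKM, while Clec4f, which marks resident Kupffer cells, ran from 54.0 to 91.8 and from 0.297 to 10.1. Neutrophil markers rose in 11 of 15 and fell in 1 (median 2.65), with summed levels of 26.4 to 43.1 and 95.3 to 266. Granule genes of immature cells led them, with Prtn3 at 7.41 to 21.8 against 0 to 0.853. Of 13 tested erythroid markers 11 rose and 0 fell (summed levels 112 to 172 and 187 to 476). Median-ratio scaling gave 9 higher and 2 lower of these markers, and quantile normalisation 8 and 1. The list includes Tfrc, given above with the iron genes and known from dividing cells too. The sums were not computed without Tfrc. Gata1, the erythroid factor gene, ran from 0 to 0.0788 and from 0.679 to 9.83. The adult globin gene Hba-a2, which has a near-identical copy, did not pass (-0.17 ± 0.13). T and NK cell markers rose in 10 of 15 and fell in 0. Median-ratio scaling gave 9 and 1, and quantile normalisation 7 and 2. Granzyme genes were in front, Gzmb (5.31 to 11.4 against 0 to 1.59) and Gzma (8.04 to 13.1 against 0.697 to 2.5). Cd3e, the defining T cell gene, stood at 0.415 to 0.807 against 0.124 to 1.04. It was not called (0.01 ± 0.17) except as lower after quantile normalisation (-0.54). Of 7 tested marker genes of pancreas and gut 4 rose and 3 fell. They held Tff3, a mucosal trefoil peptide gene, at 33.3 to 69.9 against 0 to 1.19, and Clps, the colipase gene of pancreas, at 9.57 to 45.8 against 0 to 0.506. The pancreatic elastase gene Cela1 fell, from 23.1 to 38.4 to 3.83 to 6.27. The part of these cells in any other gene of this comparison was not tested.

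Tumours of 1 animal were compared with tumours of different animals. In the 5 IDs with at least 2 tumours, which hold 14 of the 16, the median gene had an SD of 0.196 on the log2 scale between tumours of 1 ID. Between single tumours of the 7 IDs, those with letter A, it was 0.212, and between the 11 control IDs 0.243. Averaging over tumours of an ID lowered the SD between tumour IDs to 0.171, a value not comparable with the spread of single tumours. For 6347 of 14548 genes the SD within an ID was larger than between single tumours of the 7 IDs. The genes with the widest range among tumour IDs were of 3 kinds: hepatocyte genes (Ces1c, Akr1c6, Tat, Pck1 and Hamp2), the Kupffer cell gene Clec4f, and genes of blood cells (Ppbp of platelets, and Cldn13). Tat stood at 39.3 eRPKM in tumour ID125324-D and 27.5 in ID126948-C, and at 0 to 11.3 in the other 14. Pck1 stood at 56.2 and 52.6 in these tumours and at 0.288 to 13.7 in the others. Clec4f, no hepatocyte gene, was highest in the same tumours at 40.6 and 28.9, and at 0.0811 to 22.3 in the others. Cyp2e1 gave 61.5 and 36.4 against 0.897 to 24.7. Control liver lay above these values in every library for Tat, Pck1 and Cyp2e1. Gata1 ranged from 0.614 to 16.4 eRPKM in another order, highest in ID128285-B, and Dusp9 from 79.1 to 127. With 1 tumour per ID, its letter A, 11438 genes passed the test, 7136 higher and 4302 lower.

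**Figure D5:**
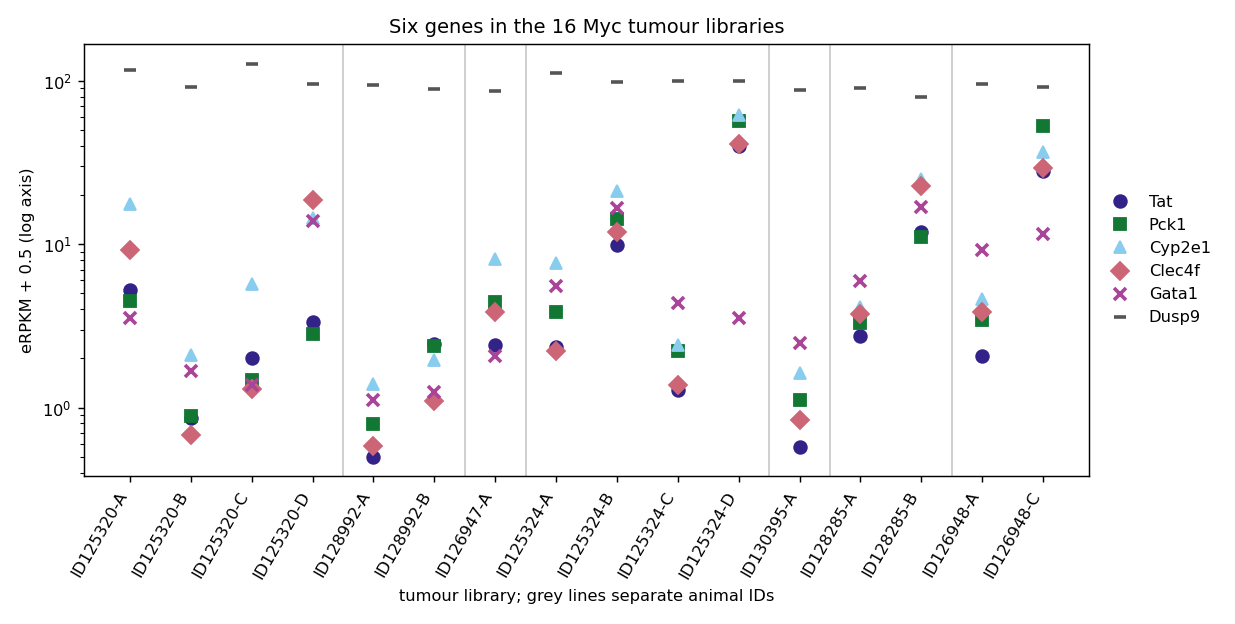
Level of 6 genes as eRPKM + 0.5 (y axis, log) in each of the 16 Myc tumour libraries (x axis, grey lines between animal IDs). Tat, Pck1, Cyp2e1 and Clec4f are highest in ID125324-D and ID126948-C, Gata1 follows another order, and Dusp9 stays between 79.1 and 127 eRPKM in all tumours.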

How the data were processed

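RNA was extracted with Trizol and RNeasy columns, depleted of ribosomal RNA and sequenced from libraries that do not mark strand, per the labels' protocols. The authors deposited exonic RPKM values for 21671 genes. Reads were aligned with TopHat2 2.0.8 to mm9, per the submitters' processing notes. The sources used here do not name the counting tool. RPKM values were whole multiples of 1 read for 17965 genes (tolerance 0.001), which gave the depth. The highest reads per kb of a library lay between 1548 and 2182 in control liver and between 1544 and 1738 in the tumours. The sources used here do not say whether reads with 1 start position were counted once. A correction for such counting, with 2000 start positions per kb, was tried as an alternative. Genes that reached 1 eRPKM in 3 or more of 31 animal IDs were kept (7123 removed). Log2(eRPKM + 0.5) values, averaged over tumours of 1 ID, were fitted in R 4.3.3 with limma 3.58.1 (trend, 4 groups in 1 fit, including 3 Myc-off and 10 MycVD IDs that share the variance estimate, two-sided, Benjamini-Hochberg at 0.05). SE is that of the fit. The fit was tested on simulated data. Fold changes on this scale understate those of low genes.

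Genes were named by a rule: Myc and 7 check genes, the 10 largest rises and falls, up to 3 each way per list, the 5 largest gains and losses of level, the 10 highest of each class near 0 in 1 group, the 8 widest among tumours, and promoter examples. Beyond this rule, pair members and genes named as examples were chosen after their values were seen. The comparison, the 57 gene lists and the tests were chosen with earlier results of these data known. Alternatives covered the pseudocount, the filter, scaling, depth, sex genes, the use of several tumours per ID and each ID left out. Promoters came from RefSeq. Some genes are not reported here.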

Additional observations from a re-analysis of the deposited data

Results flagged for a closer look

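Among 173 named genes tested over the 7 Myc tumour IDs, 9 had 1 ID set apart. Its gap to the nearest other exceeded 0.568 of the whole range, a limit that chance passes in about 1 of 20 groups. The 9 of 173 are close to that rate, so these values cannot be told apart from chance. ID126948 was highest for the hepatocyte genes Thrsp (10.3 eRPKM, others 2.85 to 6.0) and Cyp1a2 (5.08, others 0.375 to 2.35) and for the stellate cell gene Lrat (4.09, others 0.591 to 1.98), and lowest for the endothelial gene Emcn (4.05, others 6.10 to 7.64). ID126947 was highest for Onecut2 (6.69, others 0.202 to 2.92) and Tnfrsf19 (16.9, others 9.96 to 12). ID130395 was highest for Ccnd2 (11.8, others 7.96 to 9.42) and Spry3 (6.24, others 2.97 to 4.05), and ID128285 was lowest for H2-K1 (24.1, others 27.5 to 29.98).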

How the results depend on the processing

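No paired analysis was possible because each animal ID belongs to 1 group. The correction for the read ceiling and the fits without libraries of low Gapdh or without the 5 highest-numbered control IDs were chosen after seeing the data. The count of called genes stayed within 1.5 times of 11631 in all alternatives (10676 with a depth term to 12985 without a filter). The median log2 fold change of 0.27 and the share of calls that are higher, 62.5%, moved to 0.06 and 64.1% without a filter, 0.04 and 51.7% after median-ratio scaling, 0.05 and 52.1% after quantile normalisation, 0.20 and 59.1% with a depth term, 0.31 and 64.1% with the correction for the read ceiling, and 0.23 and 60.9% without the 5 highest-numbered control IDs. With each of the 18 IDs left out the count was 11399 to 11749, the median 0.26 to 0.28 and the share 62.2 to 62.9%. The cause of these shifts was not tested. Zbtb17 reversed after quantile normalisation (-0.04) and with a depth term (-0.07), Atf4 after quantile normalisation (0.28) and Cd3e likewise (-0.54). Of 196 genes named, each under 31 alternatives, 182 kept direction and call throughout. Many of them were named for large differences in the main fit, and 18 of the alternatives leave out 1 ID. The count therefore does not measure how stable the genes tested are as a whole. With the correction for the read ceiling, the median of complex I genes moved from -0.24 to -0.17. That of hepatocyte markers moved from -1.03 to -1.28. Differences of genes near the ceiling may thus be distorted in either direction, and low genes carry the precision of few reads.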

Other observations

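Genes of cell death moved in both directions. Of 18 tested Bcl2 family members 9 rose, the share of all genes, and 3 fell, or 7 fell after median-ratio scaling or quantile normalisation. Rises held Bax, which permeabilises mitochondria (1.15), and the protective Bcl2a1b, which has near-identical copies (2.77). The falls were the protective Bcl2l1 (-0.70) and Bcl2l2 (-0.85) and the death-promoting Bmf (-1.35), which did not pass with a depth term. Of 22 tested genes of adhesion and tight junctions 8 rose and 11 fell (median -0.25), with summed levels of 852 to 1029 eRPKM in control liver and 411 to 462 in the tumours. Of 10 chaperonin subunits 7 rose and 0 fell (4 and 1 after median-ratio scaling).

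All 12 hepatocyte markers fell (median -1.03). After median-ratio scaling their median was -1.28. It was -0.55 after quantile normalisation and -0.64 with a depth term, with 11 lower in each. Of 8 tested bile duct markers 4 fell and 0 rose, with summed levels of 83.3 to 142 and 41.0 to 76.3 eRPKM. B and plasma cell markers gave 2 higher and 3 lower of 7, and mesothelial markers 0 and 3 of 4. Megakaryocyte and platelet markers gave 5 higher of 9, but 0 after quantile normalisation and 1 with a single tumour per ID.

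In ID128992 the Y-linked gene Ddx3y stood at 36.1 eRPKM in tumour A and 7.91 in tumour B. Eif2s3y (32.0 and 37.5), Uty (17.5 and 17.1) and Kdm5d (15.4 and 13.7) showed no such difference. In the other tumour and control libraries with Ddx3y above 1 eRPKM it ran from 33.5 to 53.3. The same library was the lowest tumour for Phlda2, Cdkn1c and Slc22a18, which lie in 1 imprinted cluster, and had Gapdh at 16.1 eRPKM. These values were noticed in the data, no replicate of this tumour exists, and the cause was not tested.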
